A study of Mus musculus with 24 samples.

Results

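RNA sequencing of ID8 p53-/- cells, which derive from mouse ovarian surface epithelium and carry a p53 deletion, gave levels of the genes for the oxidative phosphorylation machinery. The genes described are the protein-coding genes whose symbols begin with mt-Nd, mt-Co, mt-Cytb, mt-Atp, Ndufa, Ndufb, Ndufc, Ndufs, Ndufv, Uqcr, Cox4 to Cox8 or Atp5, together with Sdha, Sdhb, Sdhc and Sdhd. Of 107 features with such a symbol, 8 lie on chromosomes 10 and 18 and are not analysed here, and 6 did not reach 1 CPM (read counts scaled to a common library size) in 3 libraries. The remaining 93 members, of 14622 genes tested and 31062 features in all, are 13 mitochondrially encoded subunits, 72 nuclear subunits and 8 assembly factors whose symbols begin with Ndufaf. Of the 93, 90 reached 1 CPM in all 24 libraries. The other 3 were mt-Nd3, with 17 such libraries and none among adherent Ifngr1-KO cells, and Cox6a2 and Cox7a1, with 12 each.

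The cells belonged to a line edited at Ifngr1 (Ifngr1-KO), which lacks an intact receptor chain for interferon-gamma (IFN-gamma), or to the control line labelled sgNTC. Each genotype is 1 line, and all groups share the p53-/- background. Cells were kept in ultra-low attachment (ULA) wells, where they do not attach, or grew adherent, and were harvested 48 hours after seeding; 100 ng/ml of IFN-gamma, or PBS as vehicle, was present during the final 24 hours. The 8 groups of 3 libraries, numbered as biological replicates, were ULA Ifngr1-KO, ULA sgNTC, adherent Ifngr1-KO and adherent sgNTC cells, each with IFN-gamma or PBS. Dead cells were removed from ULA wells only, per the labels' protocols, so culture and this handling step cannot be told apart. Likewise, the edit cannot be told apart from other differences between the lines. In bulk libraries, fewer cells of a type and less RNA per cell cannot be told apart either.

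Oxidative phosphorylation passes electrons from NADH (complex I) or succinate (complex II) through coenzyme Q, complex III and cytochrome c to oxygen at complex IV, and the proton gradient that results drives ATP synthase (complex V). The circular genome of the mitochondrion encodes core subunits of complexes I, III, IV and V, and it is transcribed as long precursors that are cut into single RNAs inside the organelle. All other subunits, and every subunit of complex II, are encoded in the nucleus, transcribed one by one and imported as proteins, so a working complex needs products of both genomes.

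Libraries held 33494774 to 63154942 counts. The edited gene, Ifngr1, ranged from 13.3 to 17.0 CPM over the Ifngr1-KO libraries (12) and from 31.7 to 48.1 CPM over the sgNTC libraries (12), so the lines did not overlap. When libraries of a group were compared by their chi-square divided by the number of genes, the adherent Ifngr1-KO PBS replicate 3 library (20.91 and 21.18 from the other 2, which stood at 7.748) and replicate 2 of ULA Ifngr1-KO cells with IFN-gamma (21.87 and 27.52, against 7.936) stood apart from their groups. All 7 markers of the tumour epithelium were detected in every group, while lymphocyte and erythroid markers summed to at most 1.44 CPM, and Cd3e, Cd3g, Nkg7 and the 4 haemoglobin genes were at 0 in all 24 libraries. Marker sums moved with culture and line. In PBS the epithelial sum was 4108 to 4265 CPM in ULA Ifngr1-KO, 2760 to 2817 in ULA sgNTC, 1726 to 2026 in adherent Ifngr1-KO and 2014 to 2177 in adherent sgNTC libraries. The endothelial sum was 75.1 to 81.3 CPM in ULA Ifngr1-KO, 25.5 to 30.4 in ULA sgNTC, 25.4 to 35.7 in adherent Ifngr1-KO and 5.25 to 7.23 in adherent sgNTC libraries. The fibroblast and pericyte sum was 3.55 to 5.98, 21.4 to 25.0, 16.7 to 22.9 and 48.8 to 62.5 CPM in the same groups, and the macrophage sum 20.6 to 25.8, 10.4 to 11.3, 6.42 to 8.02 and 4.36 to 4.82 CPM. Their part in the results below was not tested.

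The summed level of the mitochondrially encoded subunits was higher in ULA than in adherent cells and lower in Ifngr1-KO than in sgNTC cells, while the sum over the 72 nuclear subunits, assembly factors not included, was higher on both counts. In PBS the mitochondrial sum was 38575, 36261 and 36647 CPM in ULA Ifngr1-KO libraries, against 24571, 22083 and 21858 CPM in adherent Ifngr1-KO libraries. It was 48632, 54620 and 55171 CPM in ULA sgNTC libraries, against 28850, 28314 and 25605 CPM in adherent sgNTC libraries. No ULA library overlapped an adherent library of its line, and no Ifngr1-KO library overlapped an sgNTC library of its culture. The ratio of means, ULA over adherent, was 1.63 in Ifngr1-KO and 1.91 in sgNTC cells, and Ifngr1-KO over sgNTC it was 0.704 in ULA and 0.828 in adherent cells.

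The nuclear sum averaged 6324 ± 148 CPM in ULA Ifngr1-KO and 5144 ± 559 CPM in adherent Ifngr1-KO cells (SD, n = 3 each). It averaged 5494 ± 303 CPM in ULA sgNTC and 4426 ± 224 CPM in adherent sgNTC cells. These are ratios of 1.23 and 1.24 between cultures, and of 1.15 (ULA) and 1.16 (adherent) for Ifngr1-KO over sgNTC, again without overlap in any of the 4 pairs. The adherent Ifngr1-KO mean includes the library that stood apart, replicate 3, at 5788 CPM beside 4860 and 4784 CPM. The mitochondrial over nuclear ratio was 5.88 ± 0.305 in ULA Ifngr1-KO and 4.49 ± 0.65 in adherent Ifngr1-KO cells, and 9.64 ± 0.8 in ULA sgNTC and 6.24 ± 0.452 in adherent sgNTC cells. The balance of the transcripts from the 2 genomes was thus shifted towards the mitochondrial ones in ULA culture and away from them in the Ifngr1-KO line. No p is given for these sums, since the members of a library share their source.

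**Figure D1:**
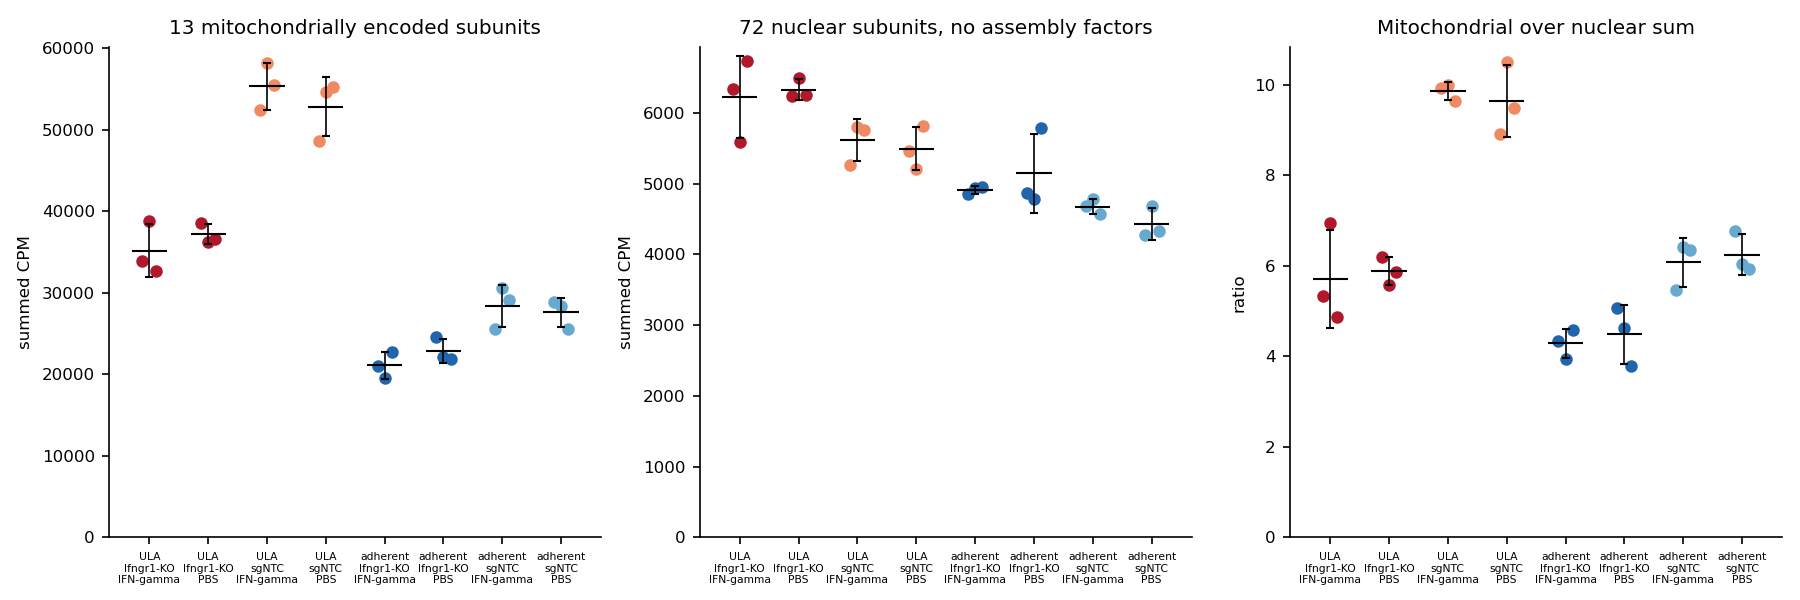
Summed CPM of the 13 mitochondrially encoded members, summed CPM of the 72 nuclear subunits without the assembly factors and the ratio of these sums in each of the 24 libraries; points are libraries, and lines are group means with SD. The ratio runs from 3.78 in an adherent Ifngr1-KO PBS library to 10.5 in a ULA sgNTC PBS library.

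All 13 mitochondrially encoded subunits rose in ULA culture in the sgNTC line in PBS, and 12 of 13 did in the Ifngr1-KO line, by the quasi-likelihood test of edgeR, with p-values adjusted by Benjamini-Hochberg over all 14622 genes and calls made at an adjusted p under 0.05. Of all genes tested, 32.5% were called higher and 32.1% lower in sgNTC cells, and 29.6% higher and 31.1% lower in Ifngr1-KO cells. The median log2 fold change of the 13 was 1.29 in sgNTC and 1.08 in Ifngr1-KO cells, beside 0.03 and -0.00 over all genes tested. Without any single library of the groups compared, 13 genes were called higher in sgNTC cells and 11 or 12 in Ifngr1-KO cells.

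The apocytochrome of complex III, mt-Cytb (chromosome M, 14145 to 15288, plus strand, GRCm38), gave the smallest adjusted p of the class. It had 4083, 3800 and 3885 CPM in ULA Ifngr1-KO libraries, against 1575, 1386 and 1399 CPM in adherent Ifngr1-KO libraries (log2 fold change 1.43 ± 0.07, SE, adjusted p = 1.63e-18). In the sgNTC line it had 7516, 8053 and 8212 CPM in ULA libraries, against 3374, 3369 and 3110 CPM in adherent libraries (1.27 ± 0.07, adjusted p = 2.35e-17). ULA libraries did not overlap adherent ones in either line.

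The 7 mitochondrially encoded subunits of complex I form part of its proton-pumping membrane arm, and all 7 rose in both lines. mt-Nd5 had 3037, 2768 and 2795 CPM in ULA Ifngr1-KO libraries, against 1448, 1342 and 1255 CPM in adherent Ifngr1-KO libraries (1.09 ± 0.09, adjusted p = 7.2e-11). In the sgNTC line it had 4649, 5489 and 5364 CPM in ULA libraries, against 1918, 1798 and 1695 CPM in adherent ones (1.52 ± 0.09, adjusted p = 1.32e-13). The groups did not overlap in either line. mt-Nd1 (0.98 in Ifngr1-KO, 0.82 in sgNTC cells), mt-Nd2 (1.13, 1.36) and mt-Nd4 (1.15, 1.26) lay between 658.4 and 5750 CPM over all 24 libraries. mt-Nd6 (1.08, 1.60) is the only 1 of the 13 annotated on the minus strand, and since the counting did not use strand, its reads cannot be told apart from antisense reads of the opposite strand. mt-Nd4l (1.98, 2.26) and mt-Nd3 (1.60, 1.30) were counted at 1.66 to 32.5 and 0.273 to 4.46 CPM, and mt-Nd4l reached 18.5 CPM in the ULA Ifngr1-KO PBS replicate 1 library beside 6.41 and 7.84 CPM in the other 2.

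Of the 3 catalytic-core subunits of cytochrome oxidase (complex IV), mt-Co1 was the most abundant member per length in every library, at 9048 to 18175 CPM per kb of gene length. It rose less than any other mitochondrial member in both lines. It had 23373, 22504 and 22542 CPM in ULA Ifngr1-KO libraries, against 17479, 15901 and 15834 CPM in adherent Ifngr1-KO libraries (0.48 ± 0.07, adjusted p = 9.92e-07). In the sgNTC line it had 24088, 27501 and 27399 CPM in ULA libraries, against 17061, 16925 and 15255 CPM in adherent ones (0.68 ± 0.07, adjusted p = 1.18e-09). ULA and adherent libraries did not overlap. mt-Co2 (0.85 in Ifngr1-KO, 1.23 in sgNTC cells) and mt-Co3 (0.82, 1.05) rose in both lines at 16.0 to 125 CPM.

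The membrane subunits of ATP synthase, mt-Atp6 and mt-Atp8, differed from each other. mt-Atp6, which forms the proton channel with subunit c, had 43.0, 47.1 and 51.6 CPM in ULA Ifngr1-KO libraries, against 32.8, 20.9 and 27.6 CPM in adherent ones (0.81 ± 0.26, adjusted p = 0.0123). This call was lost without the adherent Ifngr1-KO PBS replicate 2 library (adjusted p = 0.0564). In the sgNTC line mt-Atp6 had 140.7, 77.0 and 116.5 CPM in ULA libraries, against 43.4, 45.2 and 48.2 CPM in adherent ones (1.29 ± 0.25, adjusted p = 0.000207). mt-Atp8 had 29.3, 31.9 and 49.2 CPM in ULA sgNTC libraries, against 3.67, 3.35 and 4.17 CPM in adherent sgNTC libraries (3.30 ± 0.39, adjusted p = 6.61e-07). In Ifngr1-KO cells it had 3.89, 5.18 and 4.86 CPM in ULA libraries, against 3.76, 1.77 and 2.80 CPM in adherent ones, and did not pass the test (0.75 ± 0.42, adjusted p = 0.133).

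**Figure D2:**
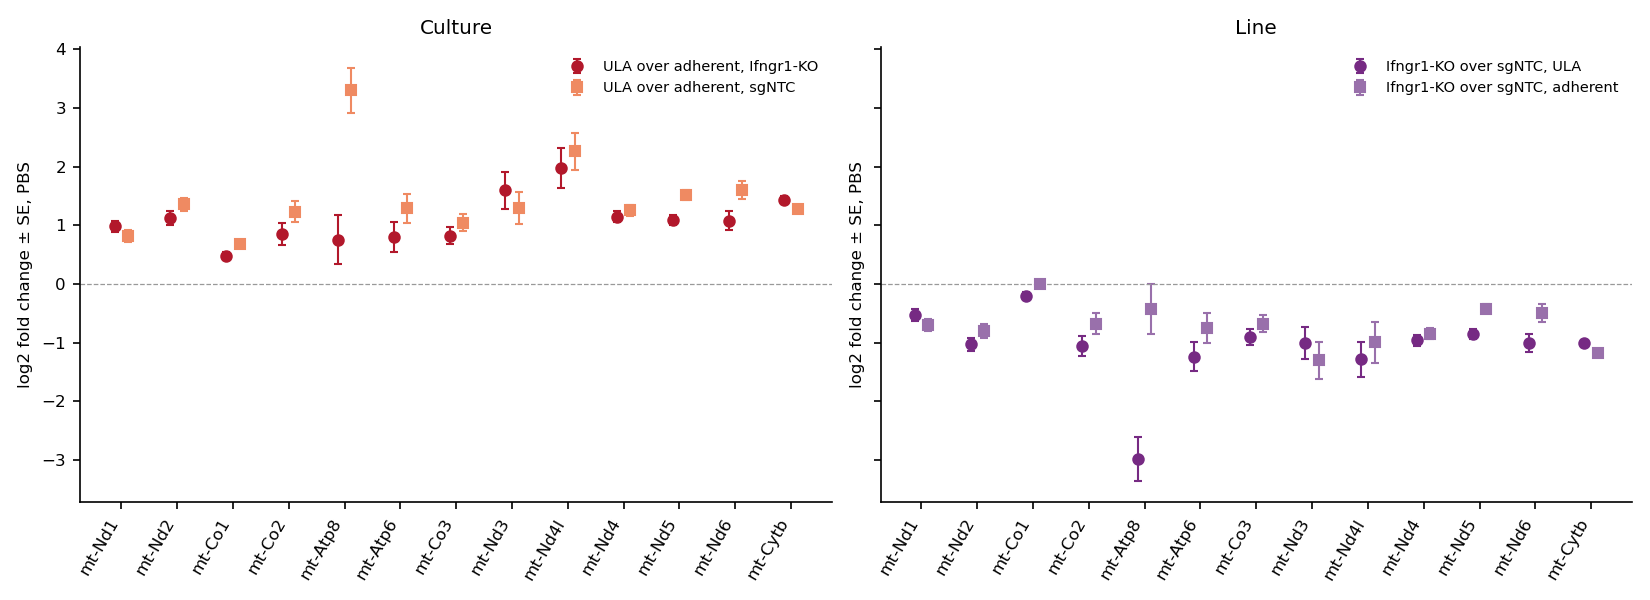
Log2 fold changes with standard errors for the 13 mitochondrially encoded genes in PBS, in genome order, for ULA over adherent (left) and Ifngr1-KO over sgNTC (right). mt-Atp8 in the sgNTC line lies at 3.30 and mt-Co1 is the lowest point of the culture panel in both lines.

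The position of these genes bears on how their reads could be counted. mt-Atp8 (chrM:7766-7969, plus strand) is 204 bases long, and its last 43 bases are also the start of mt-Atp6, written in capitals in its sequence from the GENCODE M21 transcripts of GRCm38. Reads that touch both genes were left out by the counting, per the options in the file headers, so the levels of both are not comparable with those of other genes.
mt-Atp8: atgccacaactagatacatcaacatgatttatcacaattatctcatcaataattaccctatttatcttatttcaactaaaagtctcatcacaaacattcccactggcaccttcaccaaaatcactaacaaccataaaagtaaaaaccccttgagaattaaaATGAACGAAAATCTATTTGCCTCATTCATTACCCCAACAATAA

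The mouse nuclear genome also carries copies of parts of the mitochondrial genome. Of the copies annotated in GENCODE, 1 or more shares an uninterrupted identical run of 681 bases with mt-Co2 (684 bases long), 678 with mt-Atp6 (681), 783 with mt-Co3 (784), 342 with mt-Nd3 (348) and 294 with mt-Nd4l (297); for mt-Nd4 the run is 876 of 1378 bases and for mt-Co1 479 of 1545. Reads with several matches were not counted, per the file headers. The sequences shown begin at the 5′ start of mt-Nd3 (chrM:9459-9490, plus strand) and at that of its nuclear copy Gm28438 (chr1:24613088-24613119, minus strand), with the differing base in capitals; counted from 1 at the 5′ start, the difference is T3C, with the mitochondrial base first.
mt-Nd3: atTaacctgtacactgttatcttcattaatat
Gm28438: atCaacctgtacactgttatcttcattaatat
The 5 genes with a run over nearly their whole length lay at 0.783 to 207 CPM per kb, against 409.5 to 18175 CPM per kb for the other mitochondrial members except mt-Atp8, at 8.68 to 241 CPM per kb. Their levels are therefore uncertain. Their direction in ULA over adherent culture was that of the other 8 genes, whose runs were shorter or absent. In Ifngr1-KO cells the median log2 fold change was 0.85 for these 5 genes and 1.09 for the other 8. In sgNTC cells it was 1.29 and 1.31. The other 8 were not all free of copies, since only mt-Nd1 and mt-Atp8 had no match to a nuclear copy. For mt-Co1 the longest match spanned 1545 bases at 97.6% identity. The split therefore cannot show the direction in the absence of copies.

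mt-Co1 had the smallest changes between cultures, and its share of the summed mitochondrial CPM differed between groups. In PBS it was 60.6%, 62.1% and 61.5% in ULA Ifngr1-KO libraries, against 71.1%, 72.0% and 72.4% in adherent Ifngr1-KO libraries. In the sgNTC line it was 49.5%, 50.4% and 49.7% in ULA libraries, against 59.1%, 59.8% and 59.6% in adherent ones. The share was lower in ULA than in adherent culture and higher in Ifngr1-KO than in sgNTC cells, with no overlap in any of these 4 pairs. The mt-Cytb over mt-Co1 ratio, whose genes are transcribed from the same strand, was 0.172 ± 0.003 in ULA Ifngr1-KO and 0.0885 ± 0.00151 in adherent Ifngr1-KO cells (SD, n = 3 each). It was 0.302 ± 0.00961 in ULA sgNTC and 0.2 ± 0.00321 in adherent sgNTC cells. Without mt-Co1, the mitochondrial sum was 2.23 (Ifngr1-KO) and 2.37 (sgNTC) times as high in ULA as in adherent cells.

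**Figure D3:**
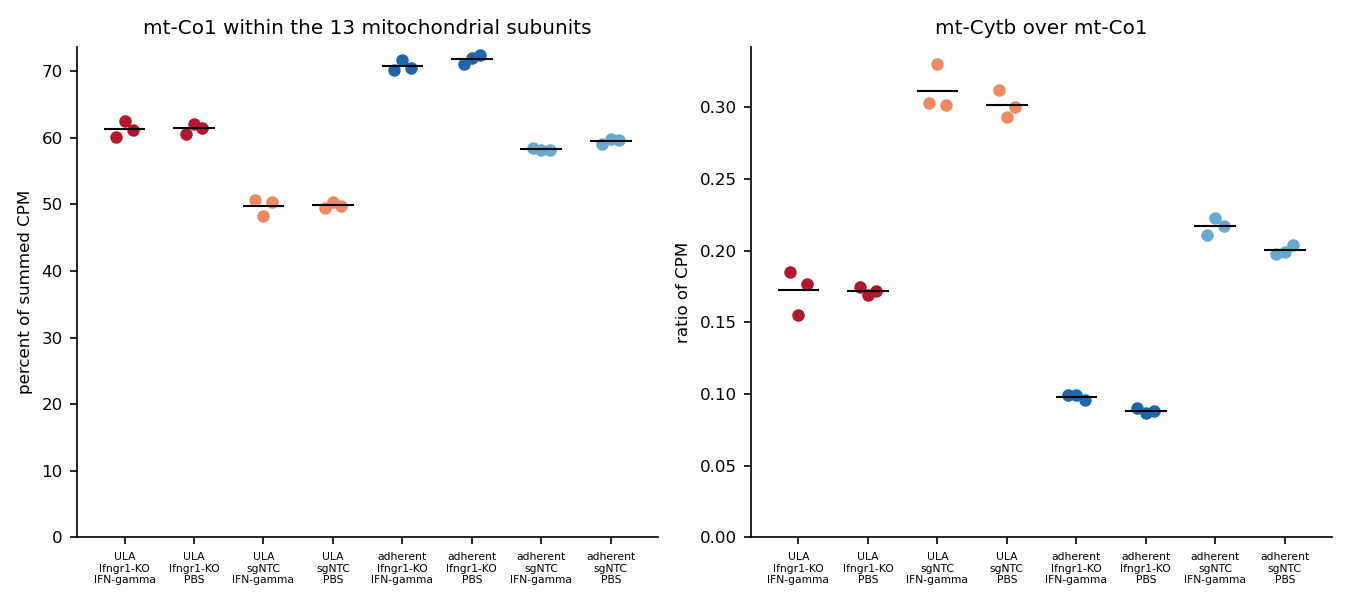
Share of mt-Co1 in the summed CPM of the 13 mitochondrially encoded members (left) and the ratio of mt-Cytb to mt-Co1 CPM (right) in each library; lines are group means. The IFN-gamma and PBS groups of each culture and line stand side by side. In adherent culture the ratio was higher with IFN-gamma than with PBS without overlap. It was 0.0956 to 0.0997 against 0.0871 to 0.0901 in Ifngr1-KO and 0.211 to 0.223 against 0.198 to 0.204 in sgNTC libraries. The adherent sgNTC share was 58.1% to 58.5% with IFN-gamma, against 59.1% to 59.8% with PBS. In ULA culture both measures overlapped. These differences were not tested.

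Nuclear members rose more often than they fell in ULA culture, by smaller amounts than the mitochondrial ones. In the sgNTC line 49 of 80 rose and 8 fell, with a median log2 fold change of 0.32, and in the Ifngr1-KO line 38 rose and 8 fell, with a median of 0.26. Over all genes tested, 32.5% were called higher and 32.1% lower in sgNTC cells, and 29.6% and 31.1% in Ifngr1-KO cells. The 2 comparisons share no library. Of the genes that rose, 36 rose in both lines, which is 94.7% of those in Ifngr1-KO and 73.5% of those in sgNTC cells. A further 7 fell in both, 87.5% of each list, and 0 moved in opposite directions past the threshold. The overlap over all genes tested was not computed, so nothing particular to the members is read from these shares. Without 1 library, 41 to 49 nuclear members rose in sgNTC cells. In Ifngr1-KO cells 37 to 58 rose, with 58 without the adherent Ifngr1-KO PBS replicate 3 library.

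Gene length moved with the culture comparison: genes shorter than 1728.5 bases, the median of the nuclear members, had a median log2 fold change of 0.23 over all 2220 such genes tested in sgNTC cells, against 0.01 for the 12402 longer ones. The nuclear members themselves lay at 0.39 (shorter, 25 of 40 called higher) and 0.25 (longer, 24 of 40). In Ifngr1-KO cells they lay at 0.32 and 0.23, beside 0.07 and -0.01 over all genes. The part of length in the members' result was not tested.

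**Figure D4:**
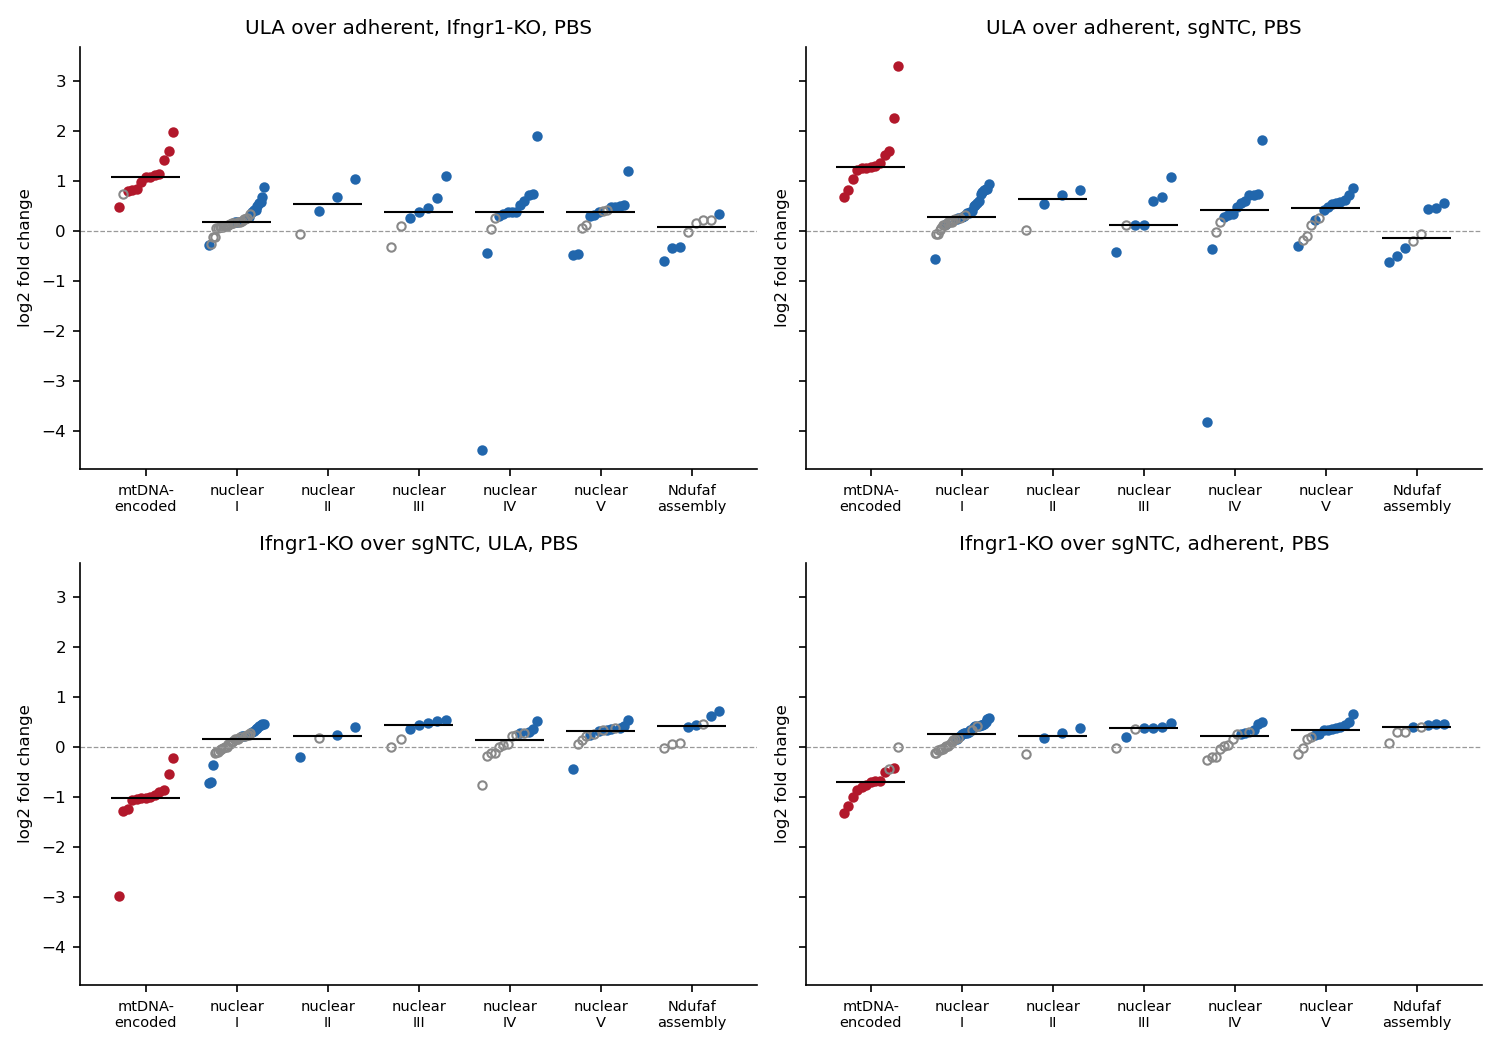
Log2 fold changes of all 93 members by class in PBS, for ULA over adherent (top) and Ifngr1-KO over sgNTC (bottom); filled points passed the test, open points did not, and lines are medians. The mitochondrial class has the highest median in the culture panels (1.08 and 1.29) and the lowest in the line panels (-1.01 and -0.70). The culture panels include Cox7a1 and Cox6a2, which passed the filter on low values only through the culture where they were higher.

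Complex I takes electrons from NADH through a peripheral arm into the membrane arm. Of its 33 nuclear members, 11 rose and 1 fell in ULA Ifngr1-KO cells (median 0.19), and 19 rose and 1 fell in ULA sgNTC cells (median 0.28). Of all genes tested, 29.6% were called higher and 31.1% lower in Ifngr1-KO cells, and 32.5% and 32.1% in sgNTC cells. The 11 that rose in Ifngr1-KO cells lay near the share of all genes. The counts for the other complexes below are read beside the same shares. Ndufv3, an accessory subunit of the NADH-oxidising module, rose most in Ifngr1-KO cells, at 90.6, 83.9 and 84.8 CPM in ULA libraries, against 46.0, 43.8 and 51.4 CPM in adherent ones (0.88 ± 0.07, adjusted p = 2.56e-13). In sgNTC cells it had 75.8, 79.3 and 81.7 CPM in ULA libraries, against 45.1, 48.9 and 43.9 CPM in adherent ones (0.78 ± 0.07, adjusted p = 4.19e-12). The groups did not overlap in either line.

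The membrane-arm accessory subunit Ndufb3 had the largest rise in sgNTC cells, to 32.7, 29.9 and 33.9 CPM in ULA libraries, against 15.0, 16.6 and 19.0 CPM in adherent ones (0.94 ± 0.15, adjusted p = 4.02e-06); in Ifngr1-KO cells its change was 0.68 ± 0.15 (adjusted p = 0.000305). Ndufs8, an iron-sulphur core subunit, was the member that fell. It had 56.0, 53.5 and 52.1 CPM in ULA Ifngr1-KO libraries, against 61.3, 64.6 and 70.8 CPM in adherent ones (-0.28 ± 0.08, adjusted p = 0.00196). In sgNTC cells it had 41.5, 37.3 and 42.3 CPM in ULA libraries, against 55.0, 62.1 and 60.5 CPM in adherent ones (-0.55 ± 0.08, adjusted p = 1.67e-07). The core subunit Ndufs3 (0.57 in Ifngr1-KO, 0.53 in sgNTC cells) rose in both lines, while Ndufv1, the flavoprotein that binds NADH, did not pass in either (0.08 in Ifngr1-KO, 0.02 in sgNTC cells).

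Complex II, succinate dehydrogenase, belongs to the tricarboxylic acid cycle as well as to the respiratory chain, and 3 of its 4 subunits rose in both lines. Sdhd, a membrane anchor, had 161.6, 176.1 and 189.5 CPM in ULA Ifngr1-KO libraries, against 83.2, 83.6 and 88.8 CPM in adherent ones (1.04 ± 0.07, adjusted p = 1.23e-15). The sgNTC line had 125.0, 131.0 and 144.3 CPM in ULA libraries, against 76.4, 77.9 and 71.8 CPM in adherent ones (0.82 ± 0.07, adjusted p = 5.5e-13). The other anchor, Sdhc (0.69 in Ifngr1-KO, 0.73 in sgNTC cells), and the flavoprotein Sdha (0.41, 0.55) rose as well. The iron-sulphur subunit Sdhb was at 67.7, 64.5 and 72.0 CPM in ULA and 63.2, 67.9 and 82.5 CPM in adherent Ifngr1-KO libraries and passed in neither line (-0.06 ± 0.08 and 0.03 ± 0.08), so the 4 parts of 1 enzyme did not change by the same amount.

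Among the 7 nuclear subunits of complex III, the cytochrome bc1 complex, 5 rose in each line, and 1 fell in sgNTC cells. Over all genes, 29.6% (Ifngr1-KO) and 32.5% (sgNTC) were called higher. The hinge protein Uqcrh had 81.9, 81.5 and 85.3 CPM in ULA Ifngr1-KO libraries, against 38.7, 34.7 and 43.0 CPM in adherent ones (1.10 ± 0.13, adjusted p = 5.12e-07). The sgNTC values were 82.0, 75.0 and 91.9 CPM in ULA libraries, against 38.1, 38.6 and 41.1 CPM in adherent ones (1.08 ± 0.13, adjusted p = 5.46e-07). Both lines thus reached the same range. The values of the core proteins were small, at 0.26 (Ifngr1-KO) and 0.13 (sgNTC) for Uqcrc1 and 0.11 (not called) and 0.13 for Uqcrc2, whose sgNTC call was lost without any 1 of 4 libraries (adjusted p = 0.0721 to 0.231). The small subunit Uqcrq fell in sgNTC cells (-0.42 ± 0.15, adjusted p = 0.0209), a call lost without ULA sgNTC PBS replicate 1 (0.0547) or 2 (0.098) or adherent sgNTC PBS replicate 2 (0.0904). The sgNTC call of Uqcrc1 was lost without ULA sgNTC PBS replicate 3 (0.196) or adherent sgNTC PBS replicate 1 (0.12) or 3 (0.186).

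The 14 nuclear members of complex IV had medians of 0.38 in Ifngr1-KO and 0.42 in sgNTC cells. Of the 14, 10 rose and 2 fell in each line, beside 29.6% (Ifngr1-KO) and 32.5% (sgNTC) of all genes called higher. These counts, and those over all nuclear members, hold Cox7a1 among the rises and Cox6a2 among the falls, both of which passed the filter on low values only through the culture where they were higher. Cox6b1, which faces the intermembrane space, had 86.8, 91.1 and 90.2 CPM in ULA Ifngr1-KO libraries, against 50.8, 43.1 and 66.7 CPM in adherent ones (0.74 ± 0.13, adjusted p = 7.73e-05); in sgNTC cells its change was 0.75 ± 0.14 (adjusted p = 6.38e-05). Ndufa4, once assigned to complex I and now known in complex IV, rose by 0.38 and 0.72 in Ifngr1-KO and sgNTC cells. Cox4i1, the largest nuclear subunit, passed in neither line (0.27 and 0.19, adjusted p = 0.0616 and 0.18). Cox8a had the highest level per kb of the nuclear members in all 8 groups, at 225.8 to 415 CPM per kb, followed by Cox6a1 at 185.5 to 219 CPM per kb. Cox8a rose by 0.38 ± 0.11 in Ifngr1-KO and 0.35 ± 0.11 in sgNTC cells, with the sgNTC call lost without ULA sgNTC PBS replicate 3 (adjusted p = 0.0689).

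Among the 14 nuclear members of complex V, 8 rose and 2 fell in Ifngr1-KO cells, and 9 rose and 1 fell in sgNTC cells. Over all genes, 29.6% and 32.5% were called higher in the same order. Atp5c1, the gamma subunit of the central stalk (0.33 in Ifngr1-KO and 0.22 in sgNTC cells), rose in both lines, as did Atp5l (0.48, 0.57) and Atp5j2 (0.50, 0.62), subunits g and f of the membrane part. Atp5f1, subunit b of the outer stalk, rose in Ifngr1-KO cells (0.30 ± 0.07, adjusted p = 0.000343) and did not pass in sgNTC cells (0.13 ± 0.07, adjusted p = 0.102). Atp5s, an accessory factor of the synthase, fell in Ifngr1-KO cells (-0.47 ± 0.14, adjusted p = 0.00286) and was at -0.18 ± 0.13 in sgNTC cells (adjusted p = 0.243). The culture effect of Atp5f1 or Atp5s was not called different between the lines.

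The 8 Ndufaf genes encode factors that help build complex I and are not part of it. In ULA culture 1 rose and 3 fell in Ifngr1-KO cells, and 3 rose and 3 fell in sgNTC cells. Over all genes, 29.6% and 32.5% were called higher and 31.1% and 32.1% lower, and nothing is read from counts this small. Ndufaf6 (-0.60 in Ifngr1-KO, -0.61 in sgNTC cells) and Ndufaf4 (-0.32, -0.49) fell in both, the Ifngr1-KO call of Ndufaf4 being lost without adherent Ifngr1-KO PBS replicate 3 (adjusted p = 0.0648). Ndufaf2 was near the threshold (-0.34 in each line, adjusted p = 0.0478 and 0.0471), and its calls were lost without any 1 of 4 libraries in Ifngr1-KO (0.127 to 0.342) and 4 in sgNTC cells (0.0639 to 0.243). Ndufaf7, a methyltransferase, rose in both (0.34, 0.45).

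Where mouse cells hold several genes for 1 subunit, the genes did not move together. Subunit c, which forms the rotor ring of ATP synthase, is encoded by Atp5g1, Atp5g2 and Atp5g3, whose mature proteins are the same. Atp5g3 had 294.7, 338.4 and 341.1 CPM in ULA Ifngr1-KO libraries, against 119.6, 144.7 and 158.8 CPM in adherent ones (1.20 ± 0.12, adjusted p = 2.88e-08). In sgNTC cells it had 249.8, 249.0 and 278.0 CPM in ULA libraries, against 139.8, 140.7 and 145.8 CPM in adherent ones (0.87 ± 0.12, adjusted p = 2.27e-06). Neither line showed overlap between cultures.

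Atp5g2 went the other way. It had 109.8, 105.6 and 96.4 CPM in ULA Ifngr1-KO libraries, against 132.6, 128.0 and 165.6 CPM in adherent ones (-0.45 ± 0.07, adjusted p = 2.31e-06). Its sgNTC values were 88.3, 82.9 and 90 CPM in ULA libraries, against 105.8, 115.6 and 100.2 CPM in adherent ones (-0.30 ± 0.07, adjusted p = 0.000579). Atp5g1 passed in neither line (0.13 ± 0.12 and -0.09 ± 0.12). Per kb of gene length, Atp5g3 made up 60.8% to 66.1% of the 3 genes in ULA Ifngr1-KO libraries in PBS, against 36.0% to 40.9% in adherent ones. In the sgNTC line it made up 61.8% to 63.9% in ULA libraries, against 41.9% to 46.1% in adherent ones.

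The muscle isoforms of complex IV were counted at low levels. Cox6a2 reached 1 CPM in adherent libraries only and Cox7a1 in ULA libraries only, 12 each, so each entered the list through the culture in which it was higher, and their values are given as a description without a test. Cox6a2, the heart and skeletal muscle form of subunit 6a, had 0.47, 0.434 and 0.204 CPM in ULA Ifngr1-KO libraries, against 7.28, 6.93 and 8.88 CPM in adherent ones. In sgNTC cells it had 0.635, 0.742 and 0.483 CPM in ULA libraries, against 7.3, 12.3 and 6.87 CPM in adherent ones. The widely expressed form, Cox6a1, lay at 117.6 to 172.7 CPM in the same 12 libraries and passed in neither line (0.04 ± 0.12 and -0.03 ± 0.12).

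Cox7a1, the muscle form of subunit 7a, had the other order. It had 1.51, 1.76 and 1.6 CPM in ULA Ifngr1-KO libraries, against 0.679, 0.295 and 0.334 CPM in adherent ones, and 1.85, 1.44 and 2.01 CPM in ULA sgNTC libraries, against 0.466, 0.422 and 0.613 CPM in adherent ones. The widespread form Cox7a2 rose (0.73 in Ifngr1-KO, 0.56 in sgNTC cells), and the related Cox7a2l, which helps tie complexes III and IV into supercomplexes, fell (-0.43 ± 0.06, adjusted p = 2.28e-07, and -0.35 ± 0.06, adjusted p = 5.96e-06).

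**Figure D5:**
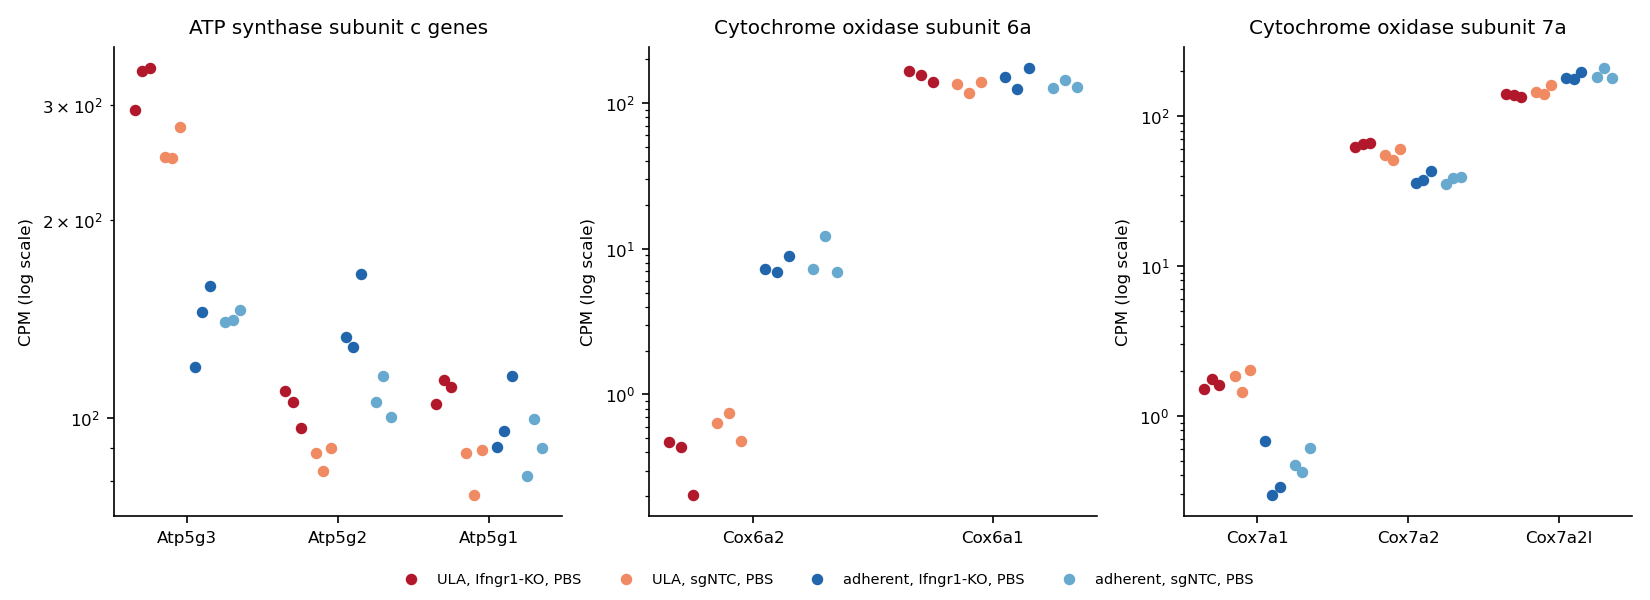
CPM of the genes that encode alternative forms of 3 subunits, per library in PBS, on log axes; each point is 1 library. Atp5g3 is higher and Atp5g2 lower in ULA libraries. Cox6a2 and Cox7a1 entered the list only through the culture where they were higher, so their difference between cultures is shown as a description.

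Promoters of the nuclear members were searched for 4 motifs on both strands, in the window from 250 bases before to 50 after the RefSeq start (GRCm38.p6), which was at hand for 66 of the 80. The motif of NRF1 (nuclear respiratory factor 1), spelled GCGCANGCG, was present in 21 (31.8%, against 6.98% of 25650 genes with a promoter of the same length). The GABP/ETS motif CCGGAAG was in 17 (25.8%, against 9.94%), the YY1 motif AANATGGCG in 9 (13.6%, against 2.72%) and the motif TNAAGGTCA of the oestrogen-related receptors (ERR) in 3 (4.55%, against 1.43%). The 3 with the ERR motif were Ndufb4, Sdhd and Atp5g3. The promoter of Uqcrh, which rose by 1.10 in Ifngr1-KO and 1.08 in sgNTC cells, held a GABP/ETS match and no ERR match. That of Cox7a2l, which fell in both lines, held none of the 4. The 25650 genes outnumber the 14622 tested, so they include genes that were not tested, whereas every member was. The shares therefore do not compare like sets, and an excess of a motif in the members is not read from them. A match is a description of the letters, not of a bound site.

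The promoters of the 3 subunit c genes and of Sdhd are shown because these genes of 1 subunit moved in different directions and Sdhd rose with Atp5g3; capitals mark motif matches, and each runs 5′ to 3′ on the gene's minus strand. Atp5g3 (chr2:73911277-73911576) holds an ERR and an NRF1 match, Atp5g2 (chr15:102670998-102671297) a pair of overlapping NRF1 matches on opposite strands, Atp5g1 (chr11:96075582-96075881) none of the 4, and Sdhd (chr9:50603800-50604099) an NRF1, a GABP/ETS and an ERR match.
Atp5g3: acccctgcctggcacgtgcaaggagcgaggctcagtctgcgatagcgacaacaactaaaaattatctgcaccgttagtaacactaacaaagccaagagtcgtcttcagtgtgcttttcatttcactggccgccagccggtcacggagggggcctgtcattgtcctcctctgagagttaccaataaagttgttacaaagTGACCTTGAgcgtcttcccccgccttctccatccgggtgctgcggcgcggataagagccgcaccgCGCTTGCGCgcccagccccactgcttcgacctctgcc
Atp5g2: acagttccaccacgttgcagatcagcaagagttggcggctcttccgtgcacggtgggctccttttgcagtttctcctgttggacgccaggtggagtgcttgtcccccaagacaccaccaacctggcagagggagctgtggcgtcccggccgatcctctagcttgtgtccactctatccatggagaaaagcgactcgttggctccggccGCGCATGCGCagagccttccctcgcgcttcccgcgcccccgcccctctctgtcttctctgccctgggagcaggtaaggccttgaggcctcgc
Atp5g1: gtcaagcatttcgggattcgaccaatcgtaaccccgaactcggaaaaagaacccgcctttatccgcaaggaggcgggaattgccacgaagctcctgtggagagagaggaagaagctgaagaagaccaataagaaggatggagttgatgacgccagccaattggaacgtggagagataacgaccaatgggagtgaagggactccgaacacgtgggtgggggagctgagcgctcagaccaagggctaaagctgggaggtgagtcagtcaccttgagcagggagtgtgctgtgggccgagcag
Sdhd: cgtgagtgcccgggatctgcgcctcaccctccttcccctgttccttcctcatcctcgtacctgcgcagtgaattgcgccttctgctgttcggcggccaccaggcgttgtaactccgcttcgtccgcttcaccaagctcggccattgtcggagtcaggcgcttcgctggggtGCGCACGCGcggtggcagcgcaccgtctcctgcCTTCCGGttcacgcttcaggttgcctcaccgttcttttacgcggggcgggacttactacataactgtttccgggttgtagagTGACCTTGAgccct
Of the 3 members with an ERR match, 2 rose in Ifngr1-KO and 3 in sgNTC cells (medians 1.04 and 0.82), and 0 fell. Of the 63 without, 29 rose and 5 fell in Ifngr1-KO cells (median 0.27), and 38 rose and 5 fell in sgNTC cells (median 0.35). Of the 9 with a YY1 match, 4 rose in Ifngr1-KO and 5 in sgNTC cells (medians 0.19 and 0.28), and 0 fell. Of the 57 without, 27 rose and 5 fell in Ifngr1-KO cells (median 0.30), and 36 rose and 5 fell in sgNTC cells (median 0.36). Since few members fell at all, nothing is read from a count of 0 among 3 or 9. Members with an NRF1 or a GABP/ETS match, and those without a match of each kind, moved in both directions. In sgNTC cells 13 of 21 members with an NRF1 match rose in ULA culture and 2 fell (median 0.26), and of 45 without, 28 rose and 3 fell (median 0.36). In Ifngr1-KO cells the medians were 0.24 with and 0.30 without an NRF1 match, and 0.38 with and 0.26 without a GABP/ETS match.

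Whether the culture effect differed between the lines was tested as an interaction, Ifngr1-KO minus sgNTC. Of 93 members, 1 was called higher and 6 lower, beside 16.6% of all genes called higher and 11.2% lower. mt-Atp8 (-2.55 ± 0.57, adjusted p = 0.00254) and mt-Nd5 (-0.43 ± 0.12, adjusted p = 0.00869) had a smaller culture effect in Ifngr1-KO cells, with the values given above. Ndufa7, an accessory subunit of complex I, had 39.7, 36.4 and 36.1 CPM in ULA and 30.7, 31.3 and 36.7 CPM in adherent Ifngr1-KO libraries, and 61.0, 55.9 and 67.3 CPM in ULA and 32.5, 38.9 and 31.8 CPM in adherent sgNTC libraries (-0.65 ± 0.13, adjusted p = 0.000179). The ULA sgNTC group stood above the other 3 without overlap.

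The other calls of the interaction were smaller. Ndufc2 (-0.42 ± 0.12, adjusted p = 0.0122) and the assembly factor Ndufaf1 (-0.40 ± 0.12, adjusted p = 0.00949) had a smaller effect in Ifngr1-KO cells. For Ndufb2 (-0.57 ± 0.21, adjusted p = 0.0427) the culture values had opposite signs, -0.25 in Ifngr1-KO and 0.32 in sgNTC cells, and neither was called. Uqcrfs1, the Rieske iron-sulphur protein of complex III, had a larger one (0.28 ± 0.08, adjusted p = 0.0116), at 133.3, 159.7 and 150.2 CPM in ULA and 105.5, 113.4 and 118.5 CPM in adherent Ifngr1-KO libraries, and 104.8, 103.9 and 108.5 CPM in ULA and 96.6, 97.9 and 97.8 CPM in adherent sgNTC libraries. The 1 member called higher became 2 without adherent sgNTC PBS replicate 1 or 3 or ULA Ifngr1-KO PBS replicate 1, and 3 without ULA sgNTC PBS replicate 3. Without the adherent Ifngr1-KO PBS replicate 3 library, 5 were called higher and 3 lower, and Ndufaf1 (0.072) and Ndufc2 (0.0774) lost their calls. The call of Ndufb2 was lost without any 1 of 8 libraries (adjusted p = 0.051 to 0.18).

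The lines were then compared within each culture. These comparisons use the same PBS libraries as those between cultures, so the 2 sets are not independent. All 13 mitochondrially encoded subunits were lower in ULA Ifngr1-KO than in ULA sgNTC cells (median log2 fold change -1.01), and 11 of 13 were lower in adherent culture (median -0.70). Of all genes tested, 24.5% were called higher and 25.6% lower in ULA, and 20.1% higher and 23.9% lower in adherent culture, with medians of -0.02 and -0.01 (log2). The nuclear members went the other way, with 32 of 80 higher and 5 lower in ULA culture (median 0.23) and 44 higher and 0 lower in adherent culture (median 0.29).

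The adherent count of nuclear members rested in part on 1 library. It was 22 without adherent Ifngr1-KO PBS replicate 3, the library that stood apart, with a median of 0.17, and 27 without adherent sgNTC PBS replicate 1, while 8 to 10 mitochondrial genes were lower without any 1 library. In ULA culture 25 to 44 nuclear members were higher, 2 to 4 lower and 12 or 13 mitochondrial ones lower without 1 library. The 0 nuclear members called lower in adherent culture were 0 to 2 without 1 library, and 54 of the 80 had an unadjusted p under 0.05 in either direction. The share of all genes at that p is not given, so nothing particular to the members is read from the 54. Both cultures share 25 nuclear members called higher, 78.1% of those in ULA and 56.8% of those in adherent cells, and 11 mitochondrial ones called lower. The same overlap over all genes was not computed, so it is not read as particular to the members.

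mt-Cytb, with the per-library values given above, was at -1.01 ± 0.07 in ULA (adjusted p = 3.51e-14) and -1.18 ± 0.07 in adherent culture (adjusted p = 1.5e-15). mt-Nd1, mt-Nd2, mt-Nd4 and mt-Nd5 were at -0.53 to -1.03 in ULA and -0.42 to -0.85 in adherent culture, and all 4 were called in both. mt-Co1 did not differ past the threshold in adherent cells (-0.00 ± 0.07, adjusted p = 0.997). In ULA cells it was lower by a smaller amount (-0.21 ± 0.07, adjusted p = 0.0153), a call lost without any 1 of 5 of the 6 libraries compared (adjusted p = 0.0561 to 0.16). mt-Atp8 was lower in ULA cells (-2.98 ± 0.38, adjusted p = 3.39e-06) and did not pass in adherent cells (-0.43 ± 0.43, adjusted p = 0.448). In adherent cells the calls of mt-Atp6, mt-Nd4l and mt-Nd6 (-0.75, -1.0 and -0.50) were each lost without at least 1 library, at adjusted p = 0.0567 to 0.123 for mt-Atp6, 0.0703 to 0.0938 for mt-Nd4l and 0.0556 to 0.079 for mt-Nd6.

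Among the nuclear subunits of complex III, 5 of 7 were called higher in Ifngr1-KO than in sgNTC cells in each culture (median 0.45 in ULA and 0.38 in adherent cells). Of all genes, 24.5% (ULA) and 20.1% (adherent) were called higher. Uqcrc1, a core protein, had 192.6, 190.6 and 187.4 CPM in ULA Ifngr1-KO libraries, against 128.1, 126.4 and 137.1 CPM in ULA sgNTC libraries (0.54 ± 0.06, adjusted p = 5.64e-10). In adherent culture it had 150.5, 154.3 and 171.0 CPM in Ifngr1-KO libraries, against 116.5, 127.8 and 112.6 CPM in sgNTC libraries (0.41 ± 0.06, adjusted p = 2.37e-07). The lines did not overlap in either culture. Uqcr10, a small subunit, was at 0.52 ± 0.12 in ULA and 0.48 ± 0.13 in adherent culture (adjusted p = 0.00115 and 0.00426), while Uqcrh, which moved most with culture, was at -0.00 and -0.02.

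In complex V, 7 of 14 nuclear members were higher and 1 lower in ULA Ifngr1-KO cells, and 10 were higher in adherent Ifngr1-KO cells. Over all genes, 24.5% (ULA) and 20.1% (adherent) were called higher. Atp5f1 had 229.2, 233.1 and 238.8 CPM in ULA Ifngr1-KO libraries, against 155.7, 148.5 and 174.3 CPM in ULA sgNTC libraries (0.55 ± 0.07, adjusted p = 4.08e-08). In adherent culture it had 181.6, 178.7 and 210.1 CPM in Ifngr1-KO libraries, against 145.0, 152.5 and 140.0 CPM in sgNTC libraries (0.38 ± 0.07, adjusted p = 2.98e-05). Atp5g2 was also higher in both (0.25 and 0.41), whereas Atp5g3 was higher in ULA (0.33 ± 0.12, adjusted p = 0.0246, lost without any 1 of 4 libraries at 0.0502 to 0.0531) and at -0.01 in adherent culture. Atp5k, subunit e, had the largest adherent difference of the complex (0.66 ± 0.21, adjusted p = 0.0122), lost without adherent Ifngr1-KO PBS replicate 3 (0.0618). Atp5s was the member that was lower in ULA (-0.43 ± 0.13, adjusted p = 0.00713), lost without ULA Ifngr1-KO PBS replicate 3 (0.0607) or ULA sgNTC PBS replicate 1 (0.0531).

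Complex IV had 4 of 14 nuclear members higher in ULA and 5 in adherent Ifngr1-KO cells. Beside 24.5% and 20.1% of all genes called higher, the ULA count of these nuclear subunits lay near the share. Cox8a, the smallest of these subunits and the most abundant per kb, had 248.3, 234.5 and 196.1 CPM in ULA Ifngr1-KO libraries, against 146.0, 149.8 and 175.1 CPM in ULA sgNTC libraries (0.53 ± 0.11, adjusted p = 0.000664). In adherent culture it had 174.0, 151.4 and 197.1 CPM in Ifngr1-KO libraries, against 120.6, 129.6 and 118.9 CPM in sgNTC libraries (0.50 ± 0.11, adjusted p = 0.00147). The lines did not overlap. Neither Cox6a2, Cox6a1, Cox7a1 nor Cox4i1 passed in either culture.

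In complex II, Sdha was higher in Ifngr1-KO cells in both cultures (0.25 ± 0.05 in ULA, adjusted p = 0.000243, and 0.39 ± 0.05 in adherent, adjusted p = 3.63e-07). Sdhd was higher in both as well (0.40 and 0.18), with the adherent call lost without adherent Ifngr1-KO PBS replicate 3 (0.0774) or adherent sgNTC PBS replicate 1 (0.0592) or 3 (0.0859). Sdhc was lower in ULA Ifngr1-KO cells (-0.19 ± 0.06, adjusted p = 0.00873), lost without any 1 of 4 libraries (0.0645 to 0.196). Sdhb was higher in adherent Ifngr1-KO cells (0.28 ± 0.08, adjusted p = 0.00412), lost without adherent Ifngr1-KO PBS replicate 3 (0.0595), and did not pass in ULA cells (0.18 ± 0.08, adjusted p = 0.0519).

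Complex I had 10 of 33 nuclear members higher and 3 lower in ULA, and 17 higher and 0 lower in adherent Ifngr1-KO cells. Over all genes, 24.5% (ULA) and 20.1% (adherent) were called higher, and 25.6% and 23.9% lower. Ndufa5 (0.47 ± 0.14, adjusted p = 0.00434) led in ULA and Ndufc1 (0.59 ± 0.14, adjusted p = 0.000581) in adherent culture. The 3 lower in ULA were Ndufa7 (-0.71 ± 0.09, adjusted p = 3.56e-08), Ndufb2 (-0.69 ± 0.15, adjusted p = 0.000251) and Ndufb3 (-0.36 ± 0.14, adjusted p = 0.0367), the last of which lost its call without any 1 of the 6 libraries (0.0607 to 0.227). Of the 8 assembly factors, 4 were higher in each culture, a count too small to read beside the shares of all genes. Ndufaf5 was at 0.72 ± 0.14 (adjusted p = 7.91e-05) in ULA, and Ndufaf4 at 0.63 ± 0.09 in ULA and 0.47 ± 0.09 in adherent cells (adjusted p = 3.4e-07 and 5.7e-05).

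IFN-gamma left the members without a call in all 4 settings. By edgeR, 0 of 93 members were called in ULA Ifngr1-KO, ULA sgNTC, adherent Ifngr1-KO or adherent sgNTC cells, beside 0.0%, 2.05%, 0.00684% and 0.315% of all genes tested. The 0.0% stands for 0 genes, with 1103 at an unadjusted p under 0.05 and 1 called by DESeq2. Among mitochondrial members 1, 2, 0 and 0 had an unadjusted p under 0.05, and among nuclear members 4, 13, 7 and 13. The shares of all genes at that p are not given for the other settings, so these counts are not read as a result about the members. DESeq2 called 1 nuclear member lower in ULA sgNTC cells, 1 higher in adherent sgNTC cells and 0 in Ifngr1-KO cells, and edgeR called 2 higher in ULA sgNTC cells without ULA sgNTC IFN-gamma replicate 1. The summed mitochondrial level with IFN-gamma was 0.945, 1.05, 0.923 and 1.03 times that with PBS in the same order, with overlapping libraries in each. In adherent culture 67 of 80 nuclear members had a positive value in sgNTC cells (median 0.12) and 65 a negative one in Ifngr1-KO cells (median -0.08), beside medians of -0.00 and 0.01 over all genes. The difference between the lines was not tested. The adherent Ifngr1-KO PBS group includes the library that stood apart, replicate 3, with a nuclear sum of 5788 CPM beside 4860 and 4784 CPM. Adherent Ifngr1-KO libraries with IFN-gamma lay at 4847 to 4954 CPM. The part of replicate 3 in the negative values was not tested.

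Culture and line differences were measured again in the IFN-gamma groups, which share no library with the PBS groups. In ULA against adherent culture, 12 mitochondrial members rose in Ifngr1-KO cells (median 1.04) and 13 in sgNTC cells (median 1.25), and 44 and 45 nuclear members rose while 7 and 9 fell, beside 29.3% and 32.6% of all genes called higher and 30.9% and 32.0% lower. Of the nuclear members that rose with IFN-gamma, 37 in Ifngr1-KO and 43 in sgNTC cells also rose in PBS, 84.1% and 95.6% of the IFN-gamma lists and 97.4% and 87.8% of the PBS lists. How far the calls of all genes overlapped was not computed, so these shares are not read as particular to the members. mt-Cytb had 3767, 3760 and 3537 CPM in ULA Ifngr1-KO libraries with IFN-gamma, against 1460, 1394 and 1530 CPM in adherent ones. In sgNTC cells with IFN-gamma it had 8037, 9277 and 8418 CPM in ULA libraries, against 3156, 3962 and 3665 CPM in adherent ones. Again the cultures did not overlap.

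Between the lines with IFN-gamma, all 13 mitochondrial members were lower in ULA (median -0.98) and 8 in adherent Ifngr1-KO cells (median -0.89). Nuclear members called higher numbered 25 in ULA and 13 in adherent cells, and those called lower 11 and 3, with medians of 0.09 and 0.04. Over all genes, 27.6% were called higher and 27.2% lower in ULA, and 20.2% higher and 23.1% lower in adherent culture. In PBS the medians of the nuclear members were 0.23 and 0.29; the difference was not tested. The ULA count of higher members was 39 without replicate 2 of ULA Ifngr1-KO cells with IFN-gamma, which stood apart. The adherent count of mitochondrial and nuclear members called lower, 11 in all, was 7 without adherent Ifngr1-KO IFN-gamma replicate 2, and the nuclear members called lower were 4 to 9 in ULA and 0 to 3 in adherent culture without 1 library. Of the 13 nuclear members higher in adherent cells with IFN-gamma, 11 were also higher in PBS, 84.6% of that list and 25.0% of the PBS list. Here too the overlap over all genes was not computed.

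The counts of related gene lists are read beside the shares of all genes called, 29.6% higher and 31.1% lower in ULA against adherent Ifngr1-KO cells and 32.5% and 32.1% in sgNTC cells. Genes that act on the mitochondrial genome and its RNA did not follow the mitochondrial subunits in ULA culture. Of 15 tested genes for processing and stability of mitochondrial RNA, 2 rose and 11 fell in ULA Ifngr1-KO cells, and 1 rose and 9 fell in ULA sgNTC cells, with medians of -0.28 and -0.54. Tbrg4, which acts in the processing of mitochondrial RNA, fell in both (-0.74 ± 0.05 and -0.84 ± 0.05, adjusted p = 1.44e-14 and 4.23e-16), as Lrpprc, which stabilises mitochondrial messenger RNAs, did in sgNTC cells (-0.75 ± 0.05, adjusted p = 1.02e-14). Of 16 genes for transcription and maintenance of mitochondrial DNA, 1 rose and 9 fell in Ifngr1-KO and 3 rose and 7 fell in sgNTC cells. The termination factor family member Mterf3 fell in both (-0.62 ± 0.07, adjusted p = 2.51e-10, and -0.35 ± 0.06, adjusted p = 1.85e-05). In the line comparisons the RNA-processing list had 9 higher and 1 lower in ULA and 7 higher and 0 lower in adherent Ifngr1-KO cells, where the mitochondrial subunits were lower.

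Of 12 regulators of mitochondrial biogenesis, 3 rose and 5 fell in ULA Ifngr1-KO cells and 3 rose and 7 fell in ULA sgNTC cells, and nothing is read from counts this small. Esrra, the receptor ERR-alpha that drives respiratory genes, rose in both (0.72 ± 0.10 and 0.36 ± 0.10, adjusted p = 8.76e-07 and 0.00317), and its coactivator Ppargc1a rose in Ifngr1-KO cells (0.69 ± 0.11, adjusted p = 1.2e-05). Myc (-1.48 ± 0.09 and -2.03 ± 0.09, adjusted p = 1.34e-12 and 2.85e-15) and the coactivator Pprc1 (-1.46 ± 0.06 and -1.72 ± 0.06, adjusted p = 1.38e-21 and 9.68e-24) fell in both lines.

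Mitochondrial import and chaperone genes fell, with 12 of 17 lower and 1 higher in ULA Ifngr1-KO cells and 13 lower and 0 higher in ULA sgNTC cells, led by the chaperonin Hspd1 (-1.08 ± 0.04 and -1.47 ± 0.05, adjusted p = 5.85e-21 and 1.06e-24). The tricarboxylic acid cycle list went more often up, with 9 of 17 higher and 3 lower in Ifngr1-KO and 8 higher and 5 lower in sgNTC cells. Ogdh, the first subunit of the oxoglutarate dehydrogenase complex, rose in both (0.71 ± 0.05 and 0.56 ± 0.05, adjusted p = 6.18e-15 and 2.47e-12). Assembly factors of all complexes, with 9 of 42 higher and 13 lower in Ifngr1-KO and 13 higher and 11 lower in sgNTC cells, and genes of electron carriers and coenzyme Q synthesis, with 5 of 17 higher and 6 lower in Ifngr1-KO and 6 higher and 7 lower in sgNTC cells, lay near the shares of all genes. In the last list Coq10b, a coenzyme Q binding protein, fell in both lines (-0.49 ± 0.06 and -0.99 ± 0.06, adjusted p = 3.95e-08 and 1.24e-15). Within ULA and adherent culture, Ifngr1-KO cells had 10 and 12 tricarboxylic acid cycle genes higher than sgNTC cells and 0 lower, 12 and 21 assembly factors higher and 4 and 1 lower, 9 and 10 carrier and coenzyme Q genes higher and 2 and 1 lower, and 8 and 6 import genes higher and 2 and 4 lower. Over all genes, 24.5% and 20.1% were higher and 25.6% and 23.9% lower.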

How the data were processed

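Each of the 24 libraries came as a table of read counts per gene. Per the file headers, the authors counted with featureCounts 2.1.1, with paired reads accepted but no strand, multi-mapping or overlap option set, so reads with several matches or over more than 1 gene were not counted. The submitters' processing notes name Trimmomatic, HISAT2, SAMtools, DESeq2 and the builds mm10 and GRCm38, and per the labels' protocols the libraries were poly-A selected. Nothing in the labels ties the biological replicates to separate cell isolates, so p-values measure the spread between these libraries.

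Genes passing filterByExpr (minimum count 10) were scaled by TMM, with factors of 0.958 to 1.05, and fitted with edgeR 4.0.16 in R 4.3.3, with a mean for each of 8 groups over all 24 libraries (16 residual degrees of freedom, biological coefficient of variation 0.0771). The quasi-likelihood tests were two-sided, made for 13 comparisons and adjusted within each over 14622 genes. CPM are TMM-scaled. The fit was tested on simulated data. Nuclear copies were matched with BLAST 2.17.0, at 90% identity or more over at least 50 bases. Gene lengths, used for levels per kb and for the split by length, are those given with the read counts. They are lengths per gene and not of 1 transcript. Sequences of transcripts are from GENCODE M21 (GRCm38) and promoters from RefSeq.

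The members and gene lists were chosen with earlier results of these data known. Text names all mitochondrial members, the called member with the largest change in each direction per complex and comparison, isoform families and subunits of complex II. Ndufb2, Ndufc2, Ndufs3, Ndufv1, Uqcrc2, Atp5c1, Atp5l, Atp5j2, Ndufaf2 and Ndufaf4 were added after their values were seen. From the other lists, genes with the smallest adjusted p were named. DESeq2 1.42.0 and other settings were alternatives. Same-numbered libraries were checked for pairing and did not deviate together.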

Additional observations from a re-analysis of the deposited data

Results flagged for a closer look

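The effect of ULA culture in PBS differed between the lines, by the test of the interaction in edgeR, for 7 members. The difference of log2 fold changes, Ifngr1-KO minus sgNTC, was -2.55 for mt-Atp8, -0.65 for Ndufa7, -0.57 for Ndufb2, -0.43 for mt-Nd5, -0.42 for Ndufc2, -0.40 for Ndufaf1 and 0.28 for Uqcrfs1. The effect was larger in Ifngr1-KO cells for Uqcrfs1 and smaller there for the others except Ndufb2, whose values were -0.25 in Ifngr1-KO and 0.32 in sgNTC cells, neither called.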

How the results depend on the processing

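Counts of members called (higher and lower) were recomputed under other settings. The interaction, 1 and 6, gave 0 and 10 with library totals in place of TMM, 3 and 14 with no filter on low counts, 4 higher with only the groups compared and 8 higher without the 2 libraries that stood apart, a setting chosen after seeing the data. Ifngr1-KO against sgNTC in adherent IFN-gamma cells, 13 and 11, gave 20 and 20 with no filter and 21 and 18 with only the groups compared. In PBS the 44 adherent members higher became 25, and in IFN-gamma the 25 ULA members higher became 38, without the 2 libraries that stood apart. IFN-gamma against PBS, 0 and 0 in each setting, gave in ULA sgNTC cells 7 and 5 with no filter, 1 lower with DESeq2, 1 and 1 with only the groups compared and 2 and 1 without the 2 libraries. In adherent sgNTC cells it gave 6 higher with no filter, 1 with DESeq2, 5 with only the groups compared and 2 without the 2 libraries, and with no filter 2 lower in adherent and 1 lower in ULA Ifngr1-KO cells. The log2 ratio of summed nuclear subunits, ULA over adherent in sgNTC cells, was 0.408 with library totals and 0.312 with TMM. The cause was not tested.

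Without 1 library, the counts ran from 22 to 51 for adherent Ifngr1-KO over sgNTC higher in PBS, 7 to 13 for the same lower with IFN-gamma, 20 to 39 for ULA Ifngr1-KO over sgNTC higher with IFN-gamma, 1 to 5 and 3 to 7 for the interaction higher and lower, and 0 to 2 for IFN-gamma in ULA sgNTC cells higher. The other counts over all 93 members stayed within 1.5 times under the settings run, and no direction of a called value turned. Of 170 values of named genes, 11 lost their call without the 2 libraries that stood apart, 7 with library totals, 4 with no filter and 2 with DESeq2. Counts of nuclear members alone ranged more widely without 1 library, at 37 to 58 higher in ULA against adherent Ifngr1-KO cells (38 with all), and at 2 to 4 lower in PBS (5) and 4 to 9 lower with IFN-gamma (11) in ULA Ifngr1-KO against sgNTC cells. Same-numbered libraries shared only a number (correlations -0.061 to 0.052); with the replicate as a block, 26 counts stayed within 1.5 times and 2 of 170 named calls were lost, Ndufaf2 in ULA against adherent Ifngr1-KO cells (adjusted p = 0.0511) and Ndufv1 in adherent Ifngr1-KO against sgNTC cells (0.0551). Library totals shifted the median of all genes by up to 0.116 on the log2 scale. Members near 1 CPM, such as mt-Nd3, Cox6a2 and Cox7a1, rest on few reads.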
